A study of Mus musculus with 12 samples.

Results

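Open chromatin was compared in mouse aortic endothelial cells (MAECs), the cells that line the aorta, and the regions described here were open in every group with a Western diet and in none of the calls of the group without one. Accessible DNA was tagged by a transposase and sequenced (ATAC-seq) in 8 samples, 2 in each of 4 groups. CDM-CDO had mothers and offspring on CD, WDM-CDO mothers on WD and offspring on CD, CDM-WDO mothers on CD and offspring on WD, and WDM-WDO both generations on WD. CD and WD stand for the control and the Western diet of the labels, the letters M and O were taken to mean mother and offspring, and both WDO groups were given WD for 4 weeks. Peak names in the lists of both CDO groups carry 08w, and those of both WDO groups 12w, read here as 8 and 12 weeks. The diet of the offspring and this label therefore cannot be told apart. Strain, sex, the contents of the diets and the way the cells were isolated are not given in the sources used here.

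Each group had 1 list of peaks, so no group had replicates to compare, and no difference below carries a test. The peaks of the 4 lists on chromosomes 1 to 19 and X were merged into 48003 regions wherever they overlapped by at least 1 bp. Of these regions, 998 held a peak of WDM-CDO, CDM-WDO and WDM-WDO and none of CDM-CDO, which is 2.08% of all regions. The regions were chosen by the peak calls themselves, so their absence from CDM-CDO is no finding, and the absence of a call is not proof of closed chromatin.

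Accessible DNA marks promoters, where transcription starts, and enhancers, which act on genes from a distance. Promoters of widely used genes tend to be open in nearly every cell, whereas enhancers differ more between cell types and between resting and stimulated cells. In endothelium, inflammatory and lipid signals act through transcription factors such as NF-kB and AP-1 (dimers of the Fos and Jun families), and ETS factors maintain the endothelial programme.

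Of the 998 regions, some lay directly on annotated starts. The 250 bases before the start are shown for 6 of them, to let a reader see the DNA under these peaks; capitals mark matches, on either strand, to the 10 motifs searched, and sequences are those of RefSeq on GRCm38.p6. The first 5 lie under regions named by rule (Plppr2 shares its region with Ccdc159, of 51, 51 and 52 reads), and Met, the receptor gene for hepatocyte growth factor, was added after its values were seen because it held an AP-1 match. Sh2d3c encodes an adaptor of integrin and receptor signalling, H2-Q7 a non-classical class I histocompatibility molecule, Plppr2 a membrane protein related to lipid phosphatases, Nlrp3 the sensor of an inflammasome, and Edn1 the vasoconstrictor endothelin-1.
Sh2d3c (chr2:32727439-32727688, plus strand): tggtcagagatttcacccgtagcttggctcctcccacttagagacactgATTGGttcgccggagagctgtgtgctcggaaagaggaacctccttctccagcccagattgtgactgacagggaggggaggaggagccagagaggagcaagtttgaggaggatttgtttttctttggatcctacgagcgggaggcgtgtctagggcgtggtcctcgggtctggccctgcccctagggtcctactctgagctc
H2-Q7 (chr17:35438905-35439154, plus strand): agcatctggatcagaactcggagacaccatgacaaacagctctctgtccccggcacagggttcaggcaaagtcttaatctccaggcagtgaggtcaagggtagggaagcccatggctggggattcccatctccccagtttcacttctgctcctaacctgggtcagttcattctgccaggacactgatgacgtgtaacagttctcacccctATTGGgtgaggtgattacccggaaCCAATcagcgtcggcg
Plppr2 (chr9:21936760-21937009, plus strand): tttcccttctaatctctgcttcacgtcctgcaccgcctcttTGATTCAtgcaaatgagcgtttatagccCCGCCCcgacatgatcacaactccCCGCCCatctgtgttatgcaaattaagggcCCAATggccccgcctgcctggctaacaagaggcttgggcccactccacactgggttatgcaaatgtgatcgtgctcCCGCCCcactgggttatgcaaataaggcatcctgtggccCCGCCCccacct
Nlrp3 (chr11:59541319-59541568, plus strand): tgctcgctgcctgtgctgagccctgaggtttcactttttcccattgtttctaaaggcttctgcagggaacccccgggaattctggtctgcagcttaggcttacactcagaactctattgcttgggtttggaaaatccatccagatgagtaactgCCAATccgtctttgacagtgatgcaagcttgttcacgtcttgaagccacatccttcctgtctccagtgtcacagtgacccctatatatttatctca
Edn1 (chr13:42301226-42301475, plus strand): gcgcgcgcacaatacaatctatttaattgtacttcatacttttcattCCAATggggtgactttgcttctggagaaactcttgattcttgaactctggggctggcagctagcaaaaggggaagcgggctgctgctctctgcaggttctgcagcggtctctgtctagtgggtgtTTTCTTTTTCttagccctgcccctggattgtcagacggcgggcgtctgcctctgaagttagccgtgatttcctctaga
Met (chr6:17463707-17463956, plus strand): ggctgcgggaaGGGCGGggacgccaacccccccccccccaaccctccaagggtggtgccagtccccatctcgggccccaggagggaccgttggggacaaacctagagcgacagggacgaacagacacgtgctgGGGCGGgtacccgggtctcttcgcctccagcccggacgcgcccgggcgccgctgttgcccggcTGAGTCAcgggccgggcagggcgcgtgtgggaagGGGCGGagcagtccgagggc
The capitals are a CCAAT box in Sh2d3c and in Nlrp3, and a pair of CCAAT boxes in H2-Q7. Plppr2 held an AP-1 match, a CCAAT box and 4 GC boxes. Edn1 held a CCAAT box and a match to the interferon regulatory factor motif, and Met an AP-1 match and 3 GC boxes. A match of letters is a description, not a site bound by a factor.

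Most of the 998 regions lay away from gene ends. A gene end, meaning a place up to 1 kb from the first or last base of a protein-coding gene, was met by 159 of them (15.9%, 95% Wilson interval 13.8 to 18.3%, which covers counting error only). A further 424 (42.5%) lay elsewhere in a gene and 415 (41.6%) between genes. Whether those in genes were in exons or introns was not analysed here, because the gene table gives only the span of each gene. Of the 10351 regions found in all 4 lists, 67.4% were at a gene end (66.5 to 68.3%), and of all 48003 merged regions 24.7%.

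Of the other sets missing from a single list, 2 had a larger share at gene ends. Regions missing only from CDM-WDO numbered 3063 and were at a gene end in 38.7% (36.9 to 40.4%), and the 518 missing only from WDM-WDO in 38.8% (34.7 to 43.1%). The 166 regions missing only from WDM-CDO had a share of 18.7% (13.5 to 25.3%), which overlapped that of the 998. Regions present in 1 list only were at a gene end in 7.85%. The 998 regions thus lay between the regions of single lists and those of all lists in this respect.

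**Figure D1:**
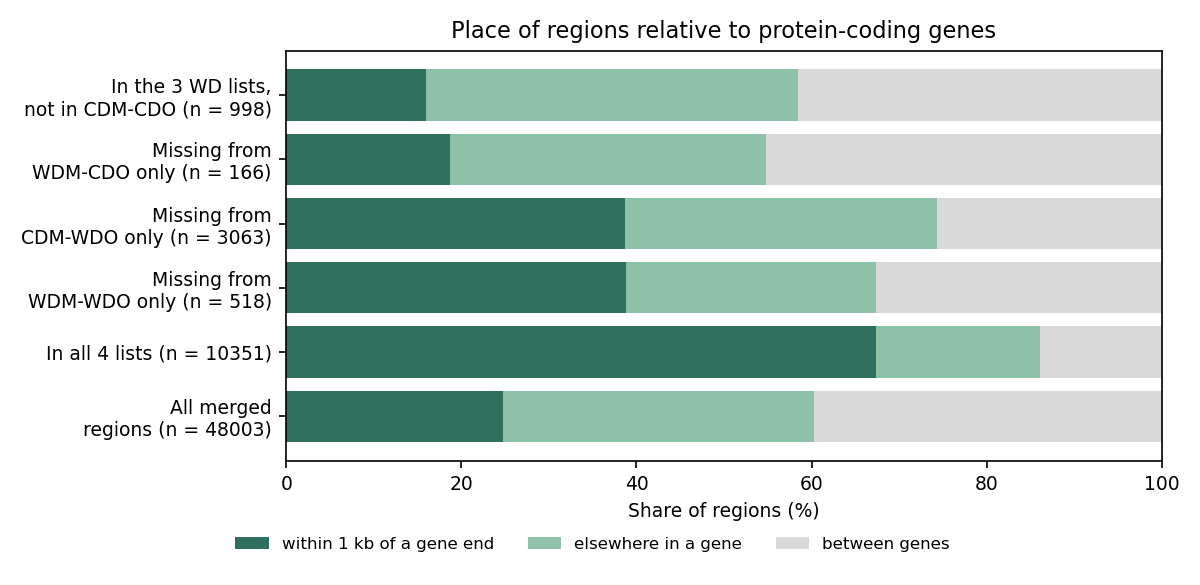
Bars show the share of regions (x axis, %) within 1 kb of an end of a protein-coding gene, elsewhere in a gene, or between genes, for each set of merged regions with its number. The set found in the 3 WD lists and not in CDM-CDO has 15.9% at gene ends, against 67.4% of the regions in all 4 lists.

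Their median width was 797.5 bp, close to the 805 and 801.5 bp of the sets missing only from CDM-WDO or WDM-WDO, and below the 1042 bp of regions in all lists. In 981 of the 998, each of the 3 WD lists had exactly 1 peak, and in 969 at least 1 base was covered in all 3 lists. The 3 summits lay within 200 bp of one another in 565 regions (56.6%), against 77.5% of regions in all 4 lists. The middle of a region was a median of 16210 bp from the nearest annotated start, for the 980 regions on chromosomes where the table gives starts; 543 of them (55.4%) were 10 to 100 kb away. Regions in all lists had a median of 292 bp.

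The regions were spread over all 20 chromosomes tested. They made up 2.99% of the regions of chromosome 11 and 2.92% of those of chromosome 15, the highest shares, and 1.02% of those of chromosome X, the lowest. Of the 998, 54 lay within 10 kb of another and 192 within 50 kb. No other set of regions was counted in this way, so these numbers are not called few or many. The nearest CDM-CDO peak was a median of 17208 bp away, within 500 bp for 8 regions and within 10 kb for 340.

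Peak heights were modest. The lowest of the 3 −log10 q values of a region, as the authors' lists give them, had a median of 3.91 and ranged from 1.39 to 29.0, against a median of 13.7 for regions in all 4 lists. The value was at least 5 in 354 regions, at least 10 in 74 and at least 20 in 4. The pileup, which is the number of reads stacked at the summit, had a median of 31 (16 to 266) for WDM-CDO, 29 (17 to 277) for CDM-WDO and 45 (17 to 350) for WDM-WDO. Regions in all lists had medians of 85, 48 and 73 in the same lists, and of 60 in CDM-CDO. Those at gene ends and those elsewhere were of like strength, with median lowest −log10 q of 3.89 at gene ends, 4.01 in genes and 3.87 between genes.

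The chance of lacking a CDM-CDO call fell with strength. Among all 11349 regions called in the 3 WD lists, 998 (8.79%) lacked a CDM-CDO call. The share was 42.8% where the lowest −log10 q was under 2 (62 of 145 regions), 17.5% from 4 to 6 (243 of 1390), 3.73% from 10 to 15 (61 of 1634) and 0 of 2408 at 30 and over. Lacking a CDM-WDO call was more frequent, at 22.8% of the regions called in the 3 other lists, whereas 4.77% lacked a WDM-WDO call and 1.58% a WDM-CDO call. This order, with CDM-CDO second, was seen in every bin of strength below 30. The lists differ in length, with 18962 peaks in CDM-WDO, 22178 in CDM-CDO, 26275 in WDM-WDO and 28319 in WDM-CDO, and the order of the shares followed that of the lengths.

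**Figure D2:**
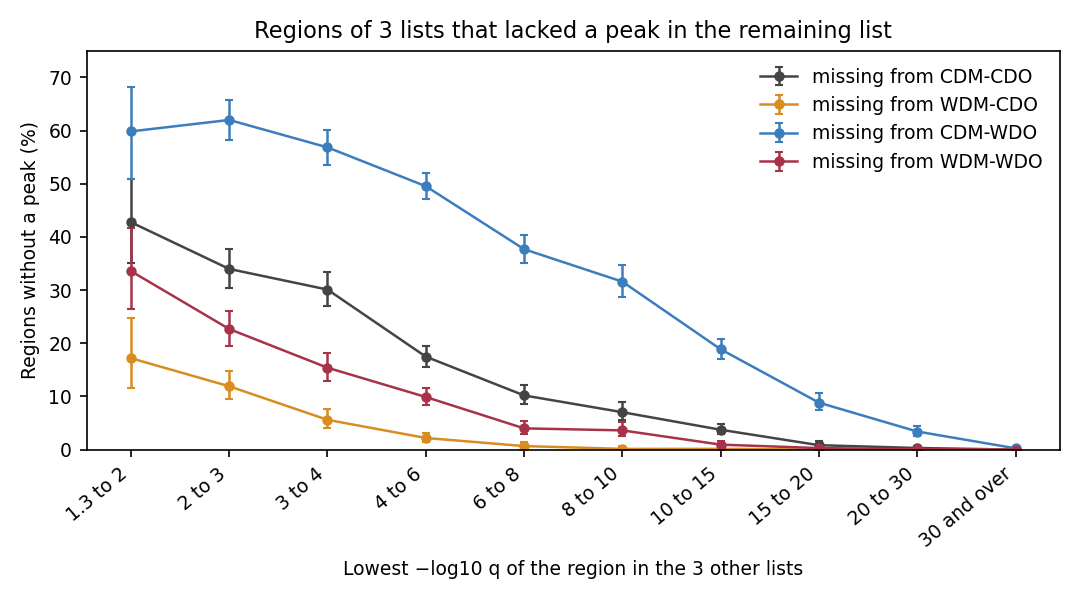
Each line shows, for regions called in 3 lists, the share without a peak in the remaining list (y axis, %), by the lowest −log10 q of the region in those 3 lists (x axis, bins); bars are 95% Wilson intervals. For CDM-CDO the share falls from 42.8% in the weakest bin to 0 of 2408 in the strongest, below the line for CDM-WDO and above those for WDM-WDO and WDM-CDO.

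At the edge of the rule, the weakest regions inside it were near Sdccag8, with a lowest −log10 q of 1.39, and near Samd14 and Kcnk6, with 1.41 and 1.47. Just outside it were regions of all 4 lists whose CDM-CDO peak was weak, near Zfp759 (1.48), Bckdha (1.59) and Pfn1 (1.61). Of the regions in all 4 lists, 28 had a CDM-CDO −log10 q under 2 and 707 under 5.

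What an absent call can show depends on how high pileups run in CDM-CDO. Pileups above background in CDM-CDO were a median 0.690 times those in WDM-CDO at regions of all 4 lists, 1.23 times those in CDM-WDO and 0.832 times those in WDM-WDO. Scaled by these values, the pileup expected in CDM-CDO had a median of 22.4 over the 998 regions, taking the lowest of the 3 expectations for each. The lowest pileup called anywhere in CDM-CDO was 14, and 973 regions (97.5%) were expected at or above it. The local background of CDM-CDO at these regions is not known, since no CDM-CDO peak lies there. It was estimated as the median of the local backgrounds of the 3 WD lists, scaled by genome background. On this estimate a median of 19 reads was needed, and 787 regions (78.9%) were expected at or above that. All local needs given below are such estimates. At 1.5 times or more the pileup needed locally were 108 regions (10.8%), and at 2 times or more 10. With the median of the 3 expectations in place of the lowest, 994 regions were at or above the local need, 624 at 1.5 times or more and 198 at 2 times or more. How far a region stood above the limit of a call in CDM-CDO therefore depended on which WD list was used to set the expectation. At regions of all 4 lists, the pileup seen was a median of 1.15 times the expected one (10th to 90th percentile 0.873 to 1.61). These regions had to be called in CDM-CDO, and taking the lowest of 3 expectations raises this ratio by construction.

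Among the 3 WD lists, the WDM-CDO peak was low in these regions. Above background, its pileup was a median 1.08 times that of CDM-WDO (quartiles 0.892 and 1.31), against 1.78 times at regions of all 4 lists (1.46 and 2.13). Relative to WDM-WDO it was 0.676 times, against 1.21 times. The ratio of WDM-WDO to CDM-WDO was 1.59 and 1.5. Within a lowest −log10 q of 3 to 10, the first ratio was 1.07 in 650 of the regions and 1.75 in 3469 regions of all lists. Away from gene ends it was 1.06 and 1.5. This range did not make the sets equal in strength. The median lowest −log10 q within it was 4.68 and 6.09, and away from gene ends 4.70 and 5.80. The quartiles of both sets overlapped in that last comparison (0.880 to 1.27 against 1.12 to 2.11). WDM-CDO and CDM-CDO share the 8-week label and the offspring's diet, and regions of all 4 lists were required to have a CDM-CDO peak; the part of either in these ratios was not tested.

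**Figure D3:**
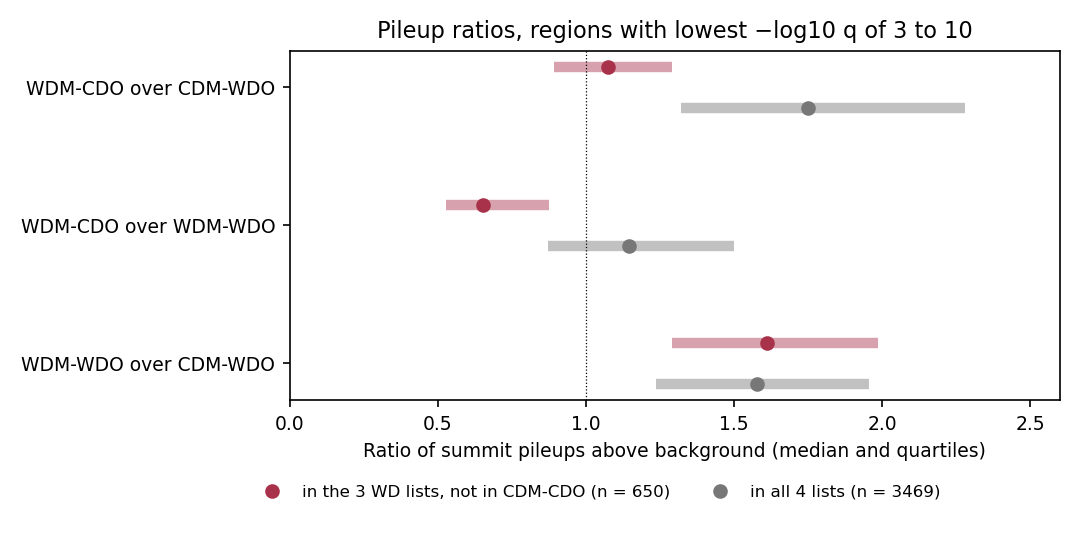
Points give the median and thick lines the quartiles of the ratio of summit pileups above background (x axis) between pairs of WD lists, for regions with a lowest −log10 q of 3 to 10. WDM-CDO over CDM-WDO is 1.07 in the 650 regions without a CDM-CDO peak and 1.75 in the 3469 regions of all 4 lists, whereas WDM-WDO over CDM-WDO is 1.61 and 1.58. The median lowest −log10 q of these sets is 4.68 and 6.09, so strength is not equal.

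The 4 strongest regions lay within Heg1, Parvb, Zdhhc18 and Kif1c. That within Heg1, which encodes a receptor of endothelial junctions needed for vessel integrity (chr16:33751369-33751943), had a pileup of 76 reads in WDM-CDO, 70 reads in CDM-WDO and 108 reads in WDM-WDO. Its fold over local background was 5.62, 5.89 and 6.77. A call in CDM-CDO was estimated to need 24 reads there, and after scaling 53.4 were expected. In Parvb, the gene of an integrin-to-actin linker in focal adhesions, the region (chr15:84235482-84236003) had 104, 78 and 101 reads in the same order. Expected in CDM-CDO were 72.8 reads against 28 needed, and no region nearest to Parvb held a CDM-CDO peak. A second region of the 998 lay on a Parvb start, with 38, 47 and 42 reads.

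The next strongest were within Zdhhc18, a palmitoyltransferase gene (chr4:133613988-133615159), with 85, 75 and 155 reads, and within Kif1c, a kinesin gene (chr11:70720027-70721088), with 64, 63 and 118. In both, WDM-WDO was the highest. Pileups are given unscaled, and on that scale WDM-WDO was the highest list in 762 of the 998 regions (76.4%). Scaled by the values above, it was the highest in 57.8%. These 4 regions were the only ones whose lowest −log10 q reached 20. Further regions of this rank lay 28766 bp from Noct, which encodes a circadian phosphatase of NADP(H) (61, 59 and 92 reads), and within Bcr, the signalling gene known from its fusion with Abl1 (77, 56 and 92). Others lay within the gene of the mTOR complex scaffold Rptor (49, 57 and 94) and of the phosphatidylinositol transfer protein Pitpnc1 (49, 53 and 102).

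Sh2d3c went another way, with 78, 62 and 60 reads (chr2:32727458-32728045). The region lies on an internal start of the gene, whose upstream bases are shown above, with summits 60 to 115 bases before it. Since gene ends were taken from whole gene spans, this start counted as lying within a gene. Susd1 was also no higher in WDM-WDO, with 55, 62 and 55 reads. Zfp469, a zinc finger gene with 70, 65 and 129 reads, had no CDM-CDO peak within 135620 bp.

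**Figure D4:**
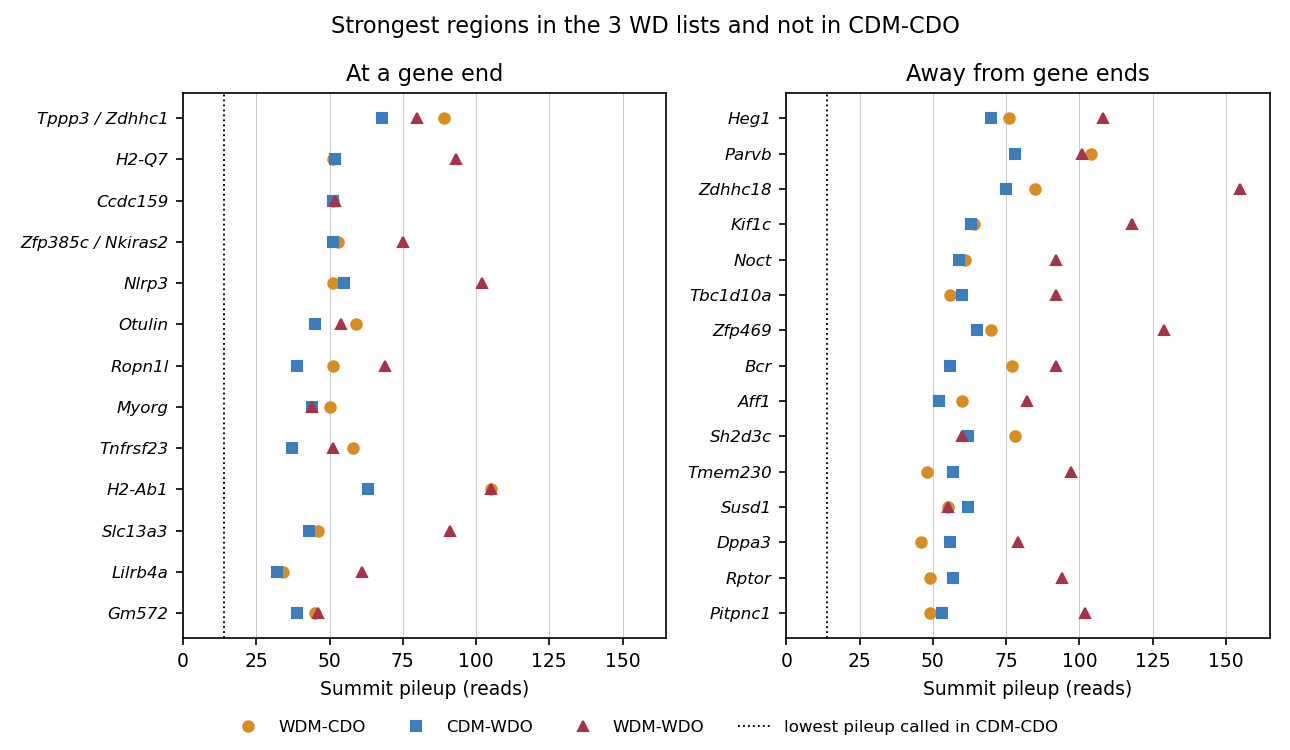
Points give the summit pileup in reads (x axis) in each of the 3 WD lists for the strongest regions at a gene end (left) and away from gene ends (right); the dotted line is the lowest pileup called in CDM-CDO, 14. Heg1 has 76, 70 and 108 reads and Nlrp3 51, 55 and 102 in WDM-CDO, CDM-WDO and WDM-WDO. Pileups are not scaled to CDM-CDO. The pileup estimated to be needed locally is above the dotted line, for example 17 at Lilrb4a and 44 at H2-Ab1.

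At gene ends the 159 regions touched 175 genes, or 0.809% of the 21631 protein-coding genes. For 131 of these genes no CDM-CDO peak lay at either end, and for 44 another region at an end did hold one. The region itself lacked a CDM-CDO peak by the rule. The same share was not taken over all genes with a region at an end, so the 131 are not read as a result. Of the 140 genes whose starts the RefSeq table gives, 99 had the region within 1 kb of a listed start. The table does not hold every start, so which end the others met was not settled. The strongest, with 89, 68 and 80 reads, lay at Tppp3, a tubulin polymerization gene, beside the palmitoyltransferase gene Zdhhc1 (chr8:105471154-105471620). It was followed by the H2-Q7 start (51, 52 and 93 reads, chr17:35438861-35439610). H2-Q7 belongs to a family of near-identical genes, so reads of its copies may have been counted here or lost.

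The region of Nlrp3, the inflammasome sensor gene (chr11:59541310-59544256) had 51, 55 and 102 reads in the same order of lists, with 36.2 expected in CDM-CDO and 27 needed. Its summits were 873 bp apart, with that of CDM-WDO away from the other pair, and the region was not kept when summits had to lie within 200 bp. It spans both starts that the table gives for the gene, and no CDM-CDO peak lay within 34653 bp of it. The start of Otulin, which encodes a deubiquitinase that restrains NF-kB signalling, had 59, 45 and 54 reads, and an end of Nkiras2, an NF-kB inhibitor gene, 53, 51 and 75. The Nkiras2 region lay 3489 bp from the nearest start of that gene and within its neighbour Zfp385c, and both Otulin and Nkiras2 had a CDM-CDO peak elsewhere at their ends. The start of Tnfrsf23, a decoy receptor gene for the death ligand TRAIL, had 58, 37 and 51.

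H2-Ab1, which encodes a class II antigen presentation chain, had a region at an end with 105, 63 and 105 reads, and another 1169 bp from the gene with 80, 61 and 119. Its ends also held a CDM-CDO peak at another place, so no absence of open chromatin at this gene can be read from these regions. Other strong ends belonged to the motile cilium gene Ropn1l (51, 39 and 69 reads), the glycosidase gene Myorg (50, 44 and 44), the citrate and dicarboxylate transporter gene Slc13a3 (46, 43 and 91) and the immune inhibitory receptor gene Lilrb4a (34, 32 and 61). The last has close paralogs, with the same limit as for H2-Q7, and it had a CDM-CDO peak elsewhere at its ends.

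The regions were scattered over many genes. Within 100 kb, 942 of them were assigned to 842 nearest genes, 3.89% of protein-coding genes and 5.44% of the genes with any region. For 755 genes it was a single region, for 76 a pair, for 9 a set of 3 and for 2 a set of 4. Those 2 were App, the amyloid precursor gene, with all 4 regions inside it, and Iqgap1, a scaffold gene of actin and junction signalling, with 3 inside and 1 beside it. The strongest App region had 37, 41 and 59 reads and the strongest Iqgap1 region 55, 42 and 84. Of the 842 genes, 184 (21.9%) had no CDM-CDO region assigned to them at all, a share near the 21.3% among all genes with a region.

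Itga5, which encodes the fibronectin receptor subunit alpha 5, had 3 of the regions, on its start (52, 50 and 56 reads), within the gene (47, 40 and 72) and 3587 bp away (46, 44 and 90). It had 5 regions over all lists, of which 1 held a CDM-CDO peak. Nrp2, a coreceptor gene for semaphorins and lymphatic growth factors, had 3 of 11, with 2 in CDM-CDO. The strongest of the 3 by the lowest −log10 q had 42, 39 and 57 reads. Another was higher once scaled in WDM-CDO (37.6 against 25.1 reads above background) and WDM-WDO (43.2 against 42.4). In CDM-WDO it was lower (36.4 against 41.4). The myeloid receptor genes Lilr4b and Cd300a had 3 of 6 each, with 0 and 1 in CDM-CDO. Emilin2, B4galt5, Tomm20, Nenf and Lpp also had 3 each.

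Among the 25 gene lists chosen for this tissue and diet, 45 of 434 genes had at least 1 of the 998 regions assigned (10.4%, against 3.89% of all protein-coding genes). Over regions, 53 of the 1371 assigned to list genes were among the 998 (3.87%, against 2.27% of all assigned regions). Listed genes had 1371 regions for 434 genes, against 41492 regions for all 21631 genes. Listed genes thus held more regions each. Shares of regions are therefore given beside gene counts below, to be set against the 2.27%. The lists were chosen with earlier results of these data known.

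Leukocyte adhesion and chemokine genes had the highest share, 5 of 18 genes, with 5 of their 39 regions. An end of Cxcl16, whose product is a chemokine that also binds oxidised lipoprotein, had 48, 30 and 87 reads (chr11:70458851-70460141). A CDM-CDO peak lay elsewhere at the ends of that gene. Regions 8879 bp from the neutrophil chemokine gene Cxcl1 (32, 42 and 70 reads) and 28084 bp from the monocyte chemokine gene Ccl2 (51, 39 and 56) were further off, as were those near the junction gene F11r (28, 23 and 64) and the growth factor gene Csf2 (27, 31 and 37). WDM-WDO was the highest list at all 5 unscaled. It was so in 76.4% of the 998 regions, and 5 regions are too few to set apart from that share. At Csf2 CDM-WDO was the highest once scaled (31.5 against 25.7 reads above background in WDM-WDO). With assignment within 10 kb, 3 of the 18 genes had a region. None of the 998 regions was assigned to Vcam1, Icam1, Sele or Selp, the classical adhesion molecules of activated endothelium.

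Endothelial identity genes had 4 of 20 (4 of their 104 regions, 3.85%), and these did not share that order. The Tek region, in the angiopoietin receptor gene (chr4:94746083-94747220), had 44, 43 and 28 reads, the Esam end 43, 41 and 28, and the Cdh5 region, in the VE-cadherin gene (chr8:104121667-104122270), 44, 27 and 31. WDM-WDO was below WDM-CDO at these genes, and above it at Fli1, an ETS factor gene (32, 25 and 36 reads), whose region lay 478 bp from a CDM-CDO peak. At the Esam end, 23.1 reads were expected in CDM-CDO and 25 needed, so a missed call cannot be told from a closed end. At Tek 23.1 were expected against 17 needed, and at Cdh5 25.6 against 19.

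Shear stress and nitric oxide genes had 3 of 16 (4 of their 53 regions, 7.55%), and 1 gene with assignment within 10 kb. The Edn1 start (chr13:42300793-42301731) had 50, 30 and 46 reads, with 35.1 expected in CDM-CDO against 21 needed. A second region 20632 bp from Edn1 had 35, 30 and 52. Of the 7 regions assigned to Edn1, 1 held a CDM-CDO peak, and the nearest such peak was 55988 bp from the start region. The region near Ptgs2, the inducible prostaglandin synthase gene, had 33, 30 and 52 reads, and that near Vwf, the von Willebrand factor gene, 18, 22 and 37. They lay 56500 and 11740 bp from these genes. At Vwf 13.4 reads were expected and 16 needed.

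The NF-kB pathway had 3 of 24 genes (3 of their 93 regions, 3.23%). The regions nearest to the inhibitor genes Tnfaip3 (33, 31 and 56 reads) and Nfkbia (34, 49 and 43) lay 57040 and 15002 bp away. That of the subunit gene Rel (30, 24 and 44) lay within it. From the list of AP-1 and early response genes, 4 of 22 had a region (4 of their 93 regions, 4.3%), all away from gene ends. The region 7567 bp from Dusp1, a phosphatase gene that limits stress kinases, was the highest (61, 73 and 115 reads). Those near Batf (42, 34 and 59), Atf3 (35, 29 and 57) and Fos (32, 25 and 42) had lower pileups. They lay 1547, 17602 and 36064 bp from these genes. The 4 AP-1 and early response regions were highest in WDM-WDO, as were most of the 998, whereas the Nfkbia region was highest in CDM-WDO. Within 10 kb, 1 NF-kB gene and 2 AP-1 and early response genes had a region, and with summits within 200 bp also 2 of the latter.

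Fatty acid handling genes had 2 of 19, with 65, 58 and 121 reads in Ppard, a lipid-sensing receptor gene, and 22, 24 and 37 in Cd36, the scavenger receptor gene. Another of the 998 regions lay on a Cd36 start with 22, 19 and 27 reads. Cholesterol export had 1 of 14, a region within Abca1, the cholesterol exporter gene (41, 36 and 58 reads). Cholesterol synthesis had 1 of 20, a region 33478 bp from the sterol sensor gene Insig1 (30, 38 and 30). The shares of these lists were 10.5%, 7.14% and 5% of genes, and 4.17%, 1.56% and 2.56% of regions.

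Histone and DNA methylation enzymes had 5 of 27 (7 of their 101 regions, 6.93%). The genes were 3 with assignment within 10 kb and 2 with a −log10 q of at least 5. Dot1l, a histone H3 methyltransferase gene, had 58, 44 and 100 reads in its higher region, and Dnmt3a, a DNA methyltransferase gene, 30, 29 and 69. The region 20234 bp from Kat6a, an acetyltransferase gene, had 31, 26 and 39. That 20711 bp from Hdac4, a deacetylase gene, had 24, 34 and 63. The fifth was Hdac9 (29, 18 and 33), another deacetylase gene. The circadian clock list had 3 of 16 genes (4 of 59 regions, 6.78%). They were an end of Bhlhe40, a clock repressor gene (68, 51 and 117 reads), and regions in Per1 (138, 109 and 130) and Arntl (29, 24 and 30). The ends of Bhlhe40 also held a CDM-CDO peak at another place. The Per1 region stood on a local background of 48.3 to 78.7 reads, and it was 1 of 4 whose background was over 5 times that of the genome in all 3 lists; artefact-prone regions were not removed. Notch and angiogenesis genes had 2 of 20 (4 of their 72 regions, 5.56%). These were Nrp2 and the lymphatic growth factor gene Vegfc, whose start region had 21 reads in each list, with 15.5 expected and 15 needed.

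Interferon response had 2 of 19 genes (Oas1a and, 9882 bp away, Ifitm3) and antigen presentation 2 of 16. Hypoxia and glycolysis had 2 of 16 and the TGF-beta list 2 of 20 (Zeb1 and, 79081 bp away, Zeb2). In the same order, these were 5.88%, 6.67%, 2.94% and 1.96% of the regions assigned to each list. The oxidative stress list (19 genes), the unfolded protein response (14) and housekeeping genes (20) had none. They had 58, 45 and 48 regions in that order, too few to set apart from the 2.27% of all assigned regions. Housekeeping genes had 22 of their 48 regions in all 4 lists.

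**Figure D5:**
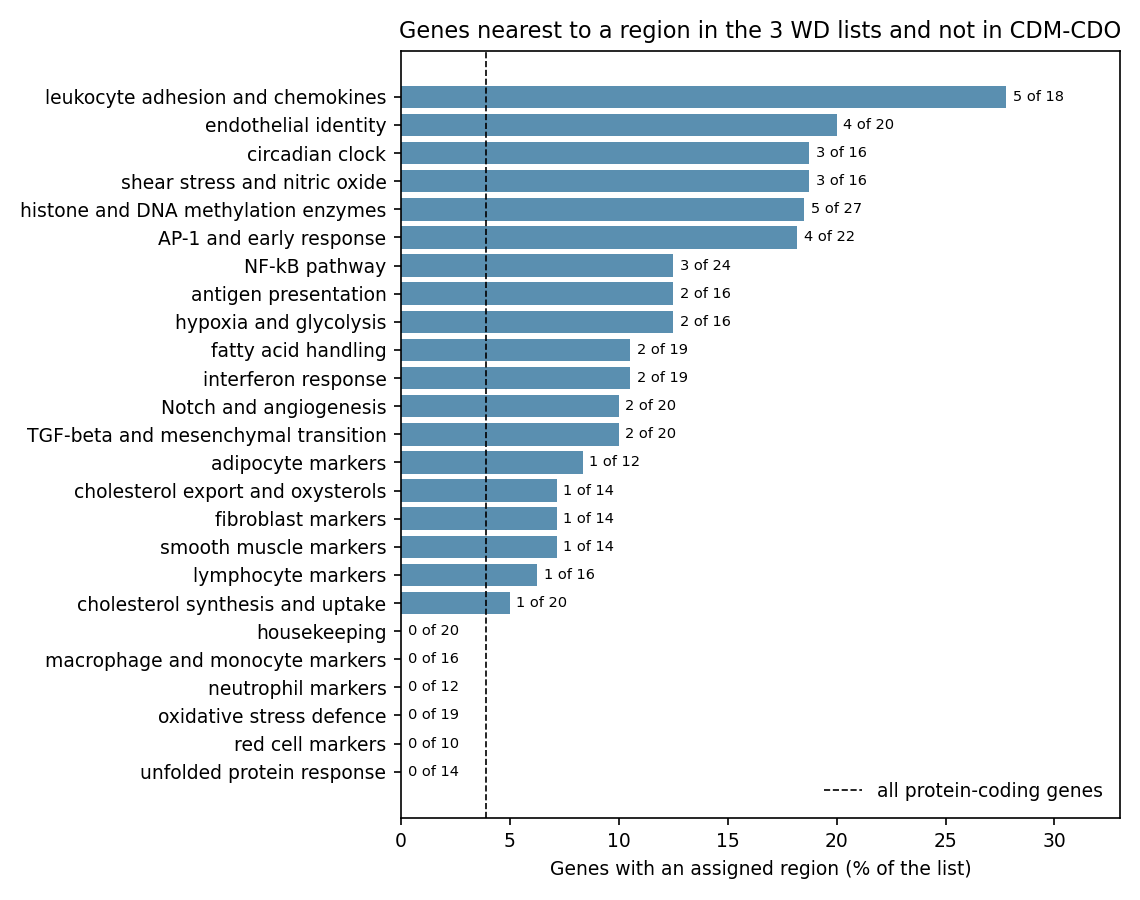
Bars give the share of each gene list (x axis, %) to which at least 1 region of the 3 WD lists without a CDM-CDO peak was assigned within 100 kb, with the counts; the dashed line is the 3.89% of all protein-coding genes. Leukocyte adhesion and chemokine genes had 5 of 18, and 6 lists had none. Lists differ in regions per gene, which the bars do not account for.

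Markers of other cells differed between the lists. None of the 16 macrophage and monocyte markers, with 43 assigned regions, had any of the 998, though 2 had a region when lists of equal length or peaks with a −log10 q of at least 5 were used. Of the 16, 12 had a peak at an end in WDM-WDO, against 5 in CDM-CDO, 5 in WDM-CDO and 4 in CDM-WDO. Summed over their ends, pileups were 206, 249, 190 and 675 in the order CDM-CDO, WDM-CDO, CDM-WDO and WDM-WDO. Csf1r and Adgre1, defining genes of macrophages, had an end peak in WDM-WDO and in no other list. Neutrophil markers had end peaks at 0, 0, 1 and 4 of 12, lymphocyte markers at 8, 10, 4 and 7 of 16, those of smooth muscle at 6, 6, 3 and 3 of 14, and those of fibroblasts at 3, 4, 2 and 4 of 14. Endothelial identity genes had 8, 10, 7 and 7 of 20. Cdh5 and Pecam1 had no end peak in any list, while Kdr, Flt1, Tie1 and Eng had one in all 4. Fewer cells of a type and less open chromatin per cell cannot be told apart in bulk samples, and the part of other cells in the 998 regions was not tested. Outside the macrophage list, 1 lymphocyte marker had a region (Il7r, 39, 31 and 74 reads). So did 1 smooth muscle (Itga8, 82306 bp away), 1 fibroblast (Dpt) and 1 adipocyte marker (Lipe).

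Start windows gave a closer view. A window of 250 bases before to 50 after a start was touched by one of the regions at 134 starts of 128 genes, 101 of them protein-coding. Examples picked after their values were seen, with no list behind them, were Itgax, a dendritic cell integrin gene (38, 33 and 50 reads), Irf8, a transcription factor gene of myeloid cells (52, 34 and 50), Card9, an adaptor gene of fungal recognition (35, 38 and 62), the RNA sensor gene Tlr3 (24, 22 and 33), the cytokine gene Il18, whose region also covers the Bco2 start (22, 20 and 29), the inflammasome sensor gene Nlrp1a (29, 20 and 27) and the ATP receptor gene P2rx7 (32, 22 and 77). WDM-WDO was the highest unscaled list at 5 of these 7 starts and not at Irf8 and Nlrp1a, near its share over all regions. Other starts were those of growth factor genes and their receptors, Hgf (26, 27 and 60 reads), Met (28, 30 and 38) and Egfr (32, 25 and 25), and of the guidance receptor gene Epha4 (34, 23 and 33). Both Card9 and Epha4 had a CDM-CDO peak elsewhere at their ends.

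The windows under these regions were poorer in CpG than those open in every list. Their median was 10 CpG and 54.5% G and C, against 23 CpG and 62.3% in the 8808 windows touched by regions of all 4 lists, and 7 CpG and 53% in all 32619 windows. The AP-1 motif (TGANTCA on either strand) was in 17 of the 134 windows (12.7%, 8.07 to 19.4%), 4.16% of those open in all lists and 7.85% of all windows. The GC box (GGGCGG) was in 47% (38.8 to 55.4%), against 70.1% of windows open in all lists and 35.9% of all windows. The interval for AP-1 over the 134 windows reached down to 8.07%, close to the share of all windows. In the 89 of these windows that held a summit of any WD list, AP-1 was in 10 (11.2%, 6.22 to 19.5%). That interval holds the 7.85% of all windows. No share was matched on base composition. Windows of nearby starts, such as the 3 of Eif4e2, overlap and share their matches.

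The remaining motifs were about as frequent as in the other windows or too few to compare. The CCAAT box (CCAAT) was in 39.6%, against 40.6% of windows open in all lists, and the ETS motif (CCGGAAGT) in 8 of 134 (5.97%) against 9.64%. The NF-kB motif was in 2 windows, those of Tlr3 and Enthd1, and the cyclic AMP response element (TGACGTCA) also in 2. The interferon regulatory factor motif was in 5, among them Oas1a and Edn1, and the NRF1 motif in 4. The SRF and YY1 motifs were in none of the 134, which says only that these letters were not in these windows. Most of the 998 regions lie outside such windows, and their sequence was not analysed here.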

How the data were processed

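Peak lists in the narrowPeak format, 1 per ATAC-seq group of 2 samples, were used as deposited, and no source used here says whether samples were pooled before peak calling. Per the submitters' processing notes, the tools included MACS2 2.2.9.1, Bowtie2 2.4.5, Trim Galore 0.6.10, deepTools 3.5.4, FastQC 0.12.1 and SAMtools 1.13, with mm10 (GRCm38) as the build. The fold enrichment (a ratio over local background), −log10 p, −log10 q and integer score of each peak are values the authors deposited, and the score was not used further. The lowest −log10 q was 1.30 to 1.31 in each list, near a q-value of 0.05. Samples of H3K27ac (4) were not analysed here.

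The pileup and local background of each summit were recovered from the fold and −log10 p under a Poisson model with 1 read added to both; 100% of peaks matched within a relative tolerance of 0.0001. Read depth is otherwise unknown; genome background was 4.84 to 6.08 reads. Recovery and merging were tested on simulated data. Python 3.11.15, pandas 2.3.3, scipy 1.17.1 and statsmodels 0.14.6 were used. Gene spans (21631 protein-coding genes) came from RefSeq on GRCm38.p6, without strand, so either end was used. Starts came from a promoter table that matched 79.9% of these genes and none of chromosome 18. No reference genome was used. Named genes were those at the ends with the 15 strongest genes, nearest to the 15 strongest regions elsewhere and the 8 with most regions, ranked by the lowest of the 3 −log10 q, and list genes with a region (all at ends, up to 4 elsewhere). Members and lists were chosen with earlier results of these data known. Where the text names others, they were picked after their values were seen. Alternatives were other peak thresholds, list lengths, overlaps, windows and scalings.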

Additional observations from a re-analysis of the deposited data

How the results depend on the processing

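The 998 regions became 963 with a −log10 q of at least 2 required of every peak, 990 with no CDM-CDO peak within 500 bp, 957 with a larger overlap (0.5 of the shorter peak) and 728 with lists of equal length. They became 658 with a −log10 q of at least 5, which kept 354 of the 998 and added regions whose CDM-CDO peak was weaker than that, and 565 with summits within 200 bp. Under these last 2 settings the number expected above the CDM-CDO call moved from 973 to 569 and 559. Fewer regions were counted in both, 658 and 565. Whether anything else lowered the number at the higher −log10 q was not tested. The gene-end share of 15.9% became 19% at a −log10 q of at least 5, where the cause was not tested, and 28.5% and 13.1% with windows of 5 kb and 500 bp, which take in more or fewer regions. The other settings left the number of regions, the number expected above the CDM-CDO call and the number of list genes within 1.5 times, and the gene-end and AP-1 shares within their intervals. Counts for single lists are small and moved by more in 11 of 25 lists at a −log10 q of at least 5, 9 with assignment within 10 kb, 6 with lists of equal length, 6 with summits within 200 bp and 1 with the larger overlap. The ratio of WDM-CDO to CDM-WDO pileups stayed between 1.07 and 1.17; the alternatives to this ratio, the local background and the median expectation were added after seeing the data. List genes with a region went from 45 to between 31 and 45. Of 100 named regions, 59 were kept under all 6 choices of peaks, and 66 with a −log10 q of at least 5. Leaving out replicates was not possible with 1 list per group. No paired analysis was possible because each group has 1 peak list and no list separates the samples. Depth limits what an absent call shows.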
